A study of Mus musculus with 4 samples.

Results

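Transcripts of 10 genes best known from neutrophils were measured in cultured peritoneal macrophages of DBA and 129 mice, which asks whether neutrophil RNA carried over from the peritoneal lavage differed between the strains. The genes were the alarmin pair S100a8 and S100a9, the azurophil granule genes Elane and Mpo, the specific granule genes Ngp, Camp, Ltf and Lcn2, and the receptors Csf3r and Cxcr2. They were taken by name, with no threshold on their values, as 10 of 22180 genes that had a probe set of a single gene symbol. All 10 were measured, each by 1 probe set. None of them passed the threshold for a strain difference after adjustment over all genes. S100a8, Lcn2 and Csf3r had their highest values in the DBA pools, and the other 7 genes differed by 0.18 or less on the log2 scale. Of those 7, S100a9, Mpo, Ngp, Camp and Ltf gave background signal in every pool, and Elane lay just above it. Differences at background set no limit on the transcripts.

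The 4 samples were 1 female and 1 male pool of DBA mice (labelled DBA/2J or DBA2/J) and 1 female and 1 male pool of 129 mice (labelled 129S6/SvEv). All mice were wild type, 3 months old and on regular chow, and all received 1 ml of thioglycollate medium into the peritoneum 4 days before lavage, so no unstimulated group enters the comparison. The lavage cells were plated and cultured overnight, and RNA of 3 mice per pool by the labels (the study's methods state another number) was combined on 1 array. Variation between animals is therefore not visible, and the 2 pools that stand as replicates of a strain also differ in sex. Values of DBA females, DBA males, 129 females and 129 males below are those of the 4 pools.

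Thioglycollate is a sterile irritant that first draws neutrophils into the peritoneal cavity and, over the following days, monocytes that become macrophages. Neutrophils form their granules in the bone marrow in a fixed order: azurophil granules with elastase and myeloperoxidase are made first, and specific granules with lactoferrin and the cathelicidin come later. Transcripts of most granule proteins are therefore low in mature neutrophils that have left the marrow, whereas S100a8 and S100a9 transcripts remain abundant in them. Several of the genes are also transcribed outside neutrophils: macrophages induce Lcn2 after stimulation of Toll-like receptors, and monocytes carry Csf3r and S100a8.

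Values are log2 expression as deposited, on which a difference of 1 is a change of 2-fold. Over genes, the array medians lay between 7.65 and 7.70. A background reference of 7.17 was set at the 95th percentile of the mean values of 1373 olfactory and vomeronasal receptor genes, which are transcribed mainly in sensory neurons. Relative to it, 5 members (S100a8, Elane, Lcn2, Csf3r and Cxcr2) were above in all 4 pools and 5 (S100a9, Mpo, Ngp, Camp and Ltf) were below in all 4. A value below the reference cannot be told from the signal of a gene that is not transcribed, and levels of different genes cannot be ranked, because probe sets differ in their response. Strains were compared in limma, and an adjusted p is the Benjamini-Hochberg value over the 22180 genes. That test called 83 genes, or 0.374%, of which 48 were higher and 35 lower in DBA, and the median difference of all genes was 0.0045. The sexes fitted their labels, since the 4 genes called between them were Xist, Eif2s3y, Uty and Kdm5d.

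**Figure D1:**
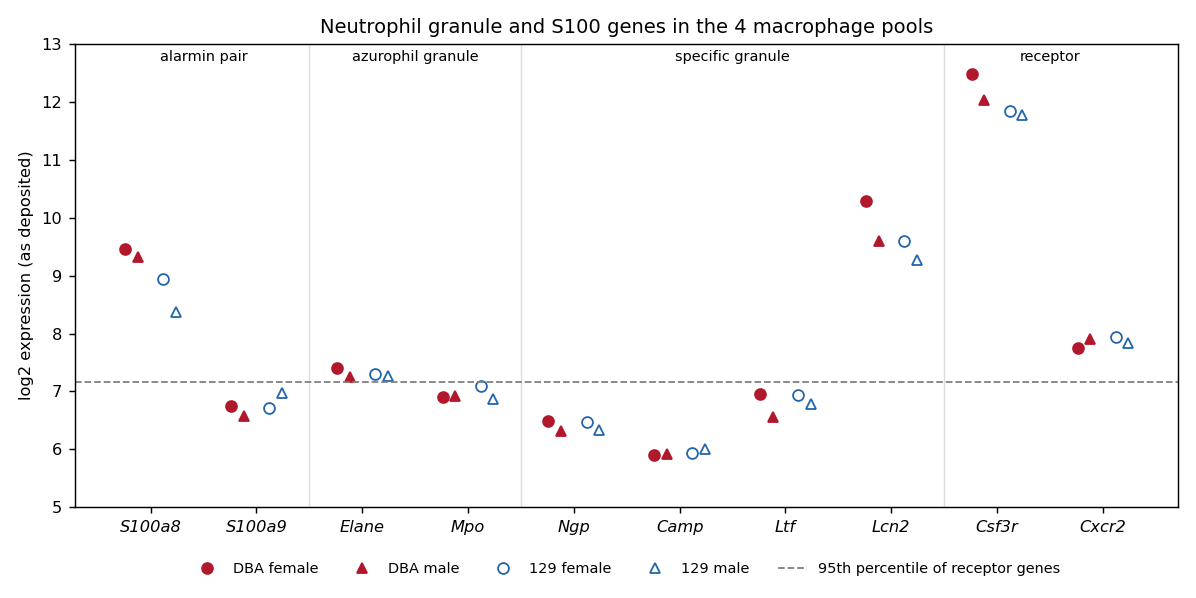
Log2 expression (vertical axis, as deposited) of the 10 genes (horizontal axis) in the DBA female, DBA male, 129 female and 129 male pools, 1 point per pool. The line marks the background reference of 7.17, and S100a9, Mpo, Ngp, Camp and Ltf lie below it in every pool while Csf3r lies above 11.7.

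S100a8 and S100a9 encode the calcium-binding subunits of calprotectin, which make up a large share of the cytosolic protein of neutrophils and act on Toll-like receptor 4 once released. The genes are next to each other on chromosome 3. S100a8 had values of 9.46 in DBA females and 9.32 in DBA males, against 8.93 in 129 females and 8.38 in 129 males. The lower DBA value thus exceeded the higher 129 value. The means were 9.39 ± 0.10 in DBA and 8.66 ± 0.39 in 129 (SD, n = 2 each). The difference was 0.74 (SE 0.20, 95% interval 0.24 to 1.23), a ratio of 1.66, and the adjusted p of limma was 0.289. It was 0.53 between the female pools and 0.94 between the male pools.

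S100a9 had values of 6.75 in DBA females and 6.58 in DBA males, against 6.71 in 129 females and 6.97 in 129 males. The strains overlapped, and every value was below the background reference. The difference was -0.18 (SE 0.14, 95% interval -0.51 to 0.16) with an adjusted p of 0.653 in limma. The signal of the S100a9 probe set was therefore at background in the pools in which that of S100a8 was above it. Whether the S100a9 probe set responds to its transcript was not tested, because no sample here was known to hold neutrophils.

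The promoters of this pair and of Lcn2 and Csf3r are printed because 3 of these genes had the widest strain differences and S100a9 is the partner that stayed at background. C/EBP factors and PU.1 are known regulators of granulocyte genes, so their core letters were searched on both strands: TTNNGNAA for C/EBP (TTNCNNAA on the other strand) and GAGGAA for PU.1 (TTCCTC on the other strand). Capitals mark the matches. Each line runs 5′ to 3′ on the strand of the gene, from 250 bases before the annotated transcript start to 50 after it, in the RefSeq sequence of build GRCm38.p6. That build is of the C57BL/6J strain, so differences carried by DBA or 129 mice are not seen in it.
S100a8 promoter, chr3:90668821-90669120, plus strand: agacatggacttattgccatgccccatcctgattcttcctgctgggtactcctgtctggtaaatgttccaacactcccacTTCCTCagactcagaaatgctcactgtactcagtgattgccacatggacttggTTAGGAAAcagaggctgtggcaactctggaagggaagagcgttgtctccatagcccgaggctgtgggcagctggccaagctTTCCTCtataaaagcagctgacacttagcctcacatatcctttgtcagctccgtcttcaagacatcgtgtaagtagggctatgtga
S100a9 promoter, chr3:90695672-90695971, minus strand: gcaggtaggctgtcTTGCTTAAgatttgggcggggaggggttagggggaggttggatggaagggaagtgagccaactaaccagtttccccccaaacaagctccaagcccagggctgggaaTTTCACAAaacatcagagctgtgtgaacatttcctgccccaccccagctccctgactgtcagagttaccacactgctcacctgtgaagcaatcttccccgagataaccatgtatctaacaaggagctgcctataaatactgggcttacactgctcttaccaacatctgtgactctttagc
Lcn2 promoter, chr2:32387690-32387989, minus strand: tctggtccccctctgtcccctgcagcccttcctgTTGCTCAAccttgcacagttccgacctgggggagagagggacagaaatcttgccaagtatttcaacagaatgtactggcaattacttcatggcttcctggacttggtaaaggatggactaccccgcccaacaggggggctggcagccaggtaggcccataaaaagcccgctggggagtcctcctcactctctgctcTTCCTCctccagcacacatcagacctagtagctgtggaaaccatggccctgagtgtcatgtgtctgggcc
Csf3r promoter, chr4:126024409-126024708, plus strand: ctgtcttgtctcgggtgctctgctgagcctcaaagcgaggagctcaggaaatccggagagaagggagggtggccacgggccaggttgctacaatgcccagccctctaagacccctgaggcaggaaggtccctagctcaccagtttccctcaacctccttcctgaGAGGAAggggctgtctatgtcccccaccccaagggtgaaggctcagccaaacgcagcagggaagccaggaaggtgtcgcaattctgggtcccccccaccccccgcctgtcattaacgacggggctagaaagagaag

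The S100a8 window held 1 C/EBP match, beginning 117 bases before the start, and 2 PU.1 matches at 170 and 36 bases before it. The S100a9 window held 2 C/EBP matches, at 236 and 130 bases before the start, and no PU.1 match. In Lcn2 a C/EBP match began at 216 and a PU.1 match at 20 bases before the start, and the Csf3r window held 1 PU.1 match at 86 bases. All 10 genes were matched to a window. A C/EBP match was present in 5 (S100a8, S100a9, Ngp, Ltf and Lcn2), against 40.7% of all 32851 windows of this length. A PU.1 match was present in 7 (S100a8, Elane, Mpo, Ltf, Lcn2, Csf3r and Cxcr2), against 28.3% of all windows. Only S100a8, Ltf and Lcn2 held both kinds, only Camp held neither, and no C/EBP match overlapped a PU.1 match. The matches are a description of the letters and say nothing of binding in these cells.

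The strains overlapped in both azurophil granule genes. Elane encodes neutrophil elastase, a serine protease. It had values of 7.40 in DBA females and 7.24 in DBA males, against 7.30 in 129 females and 7.27 in 129 males. These overlapped and were all just above the background reference. The difference was 0.03 (SE 0.11, 95% interval -0.25 to 0.32). Mpo encodes myeloperoxidase, the enzyme that forms hypochlorous acid. It had values of 6.90 in DBA females and 6.92 in DBA males, against 7.09 in 129 females and 6.86 in 129 males. Both DBA values fell between the 129 values, and the difference was -0.06 (SE 0.12, 95% interval -0.37 to 0.24). The adjusted p in limma was 0.927 for Elane and 0.866 for Mpo.

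Of the specific granule genes, Ngp, Camp and Ltf were below the reference in every pool. Ngp (neutrophilic granule protein) had values of 6.49 in DBA females and 6.31 in DBA males, against 6.48 in 129 females and 6.34 in 129 males. Its strain means were nearly the same, with a difference of -0.0045 (SE 0.12, 95% interval -0.31 to 0.30). Camp encodes the cathelicidin antimicrobial peptide. It had values of 5.90 in DBA females and 5.91 in DBA males, against 5.93 in 129 females and 6.01 in 129 males. Camp was the only member with both DBA pools below both 129 pools, by a difference of -0.07 (SE 0.11, 95% interval -0.33 to 0.20). Ltf encodes lactoferrin, the iron-binding protein of specific granules. It had values of 6.95 in DBA females and 6.56 in DBA males, against 6.94 in 129 females and 6.78 in 129 males. Its groups overlapped, with a difference of -0.11 (SE 0.16, 95% interval -0.51 to 0.29). The limma adjusted p was 0.993 for Ngp, 0.833 for Camp and 0.820 for Ltf. Since these 3 genes gave background signal, the intervals describe that signal and set no limit on the transcripts.

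Lcn2 stood apart from the other specific granule genes in that it was well above background. It encodes lipocalin 2, which binds bacterial siderophores and is also secreted by macrophages and epithelia. Its values were 10.29 in DBA females and 9.60 in DBA males, against 9.60 in 129 females and 9.27 in 129 males. The DBA female pool was the highest, and the DBA male pool exceeded the 129 female pool by only 0.0023. The difference was 0.51 (SE 0.25, 95% interval -0.10 to 1.12), a ratio of 1.42, and the adjusted p of limma was 0.497. It was 0.68 between the female pools and 0.33 between the male pools. Without the DBA female pool the difference was 0.17, and without the DBA male pool it was 0.85.

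Csf3r encodes the receptor for G-CSF, the cytokine that drives neutrophil production, and it was clearly above background. Its values were 12.49 in DBA females and 12.03 in DBA males, against 11.85 in 129 females and 11.78 in 129 males. Neither DBA value reached down to the 129 values, and the DBA females were highest. The difference was 0.45 (SE 0.17, 95% interval 0.02 to 0.87), a ratio of 1.36, with an adjusted p of 0.416 in limma. It was 0.64 between the female pools and 0.25 between the male pools, and it was 0.22 without the DBA female pool. Csf3, which encodes the ligand G-CSF, had values of 7.50 in DBA females and 7.66 in DBA males, against 7.63 in 129 females and 7.39 in 129 males.

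Cxcr2 encodes the receptor through which CXC chemokines such as Cxcl1 and Cxcl2 attract neutrophils. Its values were 7.75 in DBA females and 7.91 in DBA males, against 7.93 in 129 females and 7.83 in 129 males. The strains overlapped, with a difference of -0.05 (SE 0.12, 95% interval -0.34 to 0.24) and an adjusted p of 0.899 in limma. Cxcr1, the neighbouring receptor gene on chromosome 1, overlapped too, with a difference of -0.30 (SE 0.26).

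**Figure D2:**
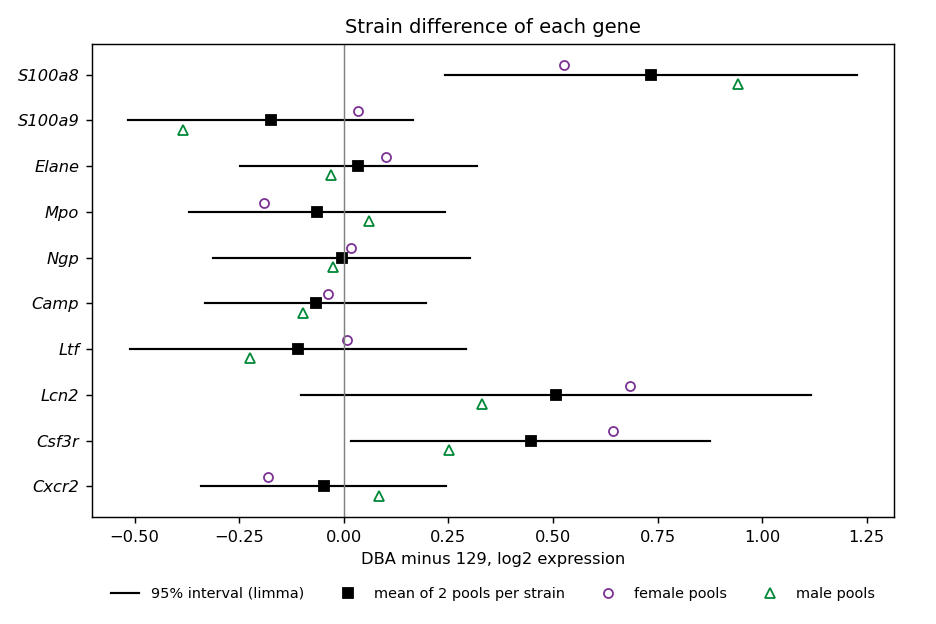
DBA minus 129 in log2 expression (horizontal axis) for the 10 genes (vertical axis). Squares are the differences of the means of 2 pools per strain with 95% intervals of limma, circles the female pools and triangles the male pools, and S100a8 and Csf3r are the genes whose interval lies above 0.

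Counted over the 10 genes, 0 passed the adjusted threshold in limma, where 0.374% of all genes did. At an unadjusted p under 0.05, 2 genes (S100a8 and Csf3r) were higher in DBA, against 6.44% of all genes, and 0 were lower, against 5.08%. That count was 3 with sex as a block, where Lcn2 joined, and without the DBA male pool. It was 1 with quantile normalization, in a fit of all probe sets, and when the DBA female pool or either 129 pool was dropped. The strains did not overlap, with DBA higher, for 3 genes (S100a8, Lcn2 and Csf3r), against 23% of all genes, and did not overlap, with DBA lower, for 1 gene (Camp), against 21.4%. The median difference of the 10 genes was -0.03, with 5 of them below the reference in every pool. With 2 pools against 2 the smallest two-sided p of an exact permutation test is 0.333, so the statements above rest on the spread that limma shares over genes. The sign of the difference between DBA and 129 was opposite in the female and in the male pools for 6 genes (S100a9, Elane, Mpo, Ngp, Ltf and Cxcr2), against 45.9% of all genes.

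Female pools were compared with male pools in limma with strain in the model. None of the 10 genes passed the adjusted threshold, where 0.018% of all genes did, and at an unadjusted p under 0.05 the count was 1, Lcn2, against 383 of all genes, or 1.73% (0 members without strain in the model, and 2 with quantile normalization). Lcn2 was higher in the female pools by 0.50 (SE 0.16), by 0.68 within DBA and by 0.33 within 129. S100a8 was 0.35 (SE 0.17) higher in the female pools and Csf3r 0.27 (SE 0.17) higher. Both female pools were above both male pools for 3 genes (Elane, Ngp and Ltf), against 9.25% of all genes, and Ngp and Ltf were at background. The female value was the higher one for 7 of the 10 genes in DBA and for 8 in 129. The share of all genes was not counted for this, and 5 of the 10 were at background.

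The remaining genes of the neutrophil programme were counted by granule class, and each count reads against the shares of all genes: 0.374% past the adjusted threshold, and, before adjustment, 6.44% higher and 5.08% lower in DBA. Of 9 further azurophil granule genes, 0 passed the adjusted threshold of limma, and 1 was lower in DBA while 0 were higher at an unadjusted p under 0.05, which for 9 genes is near those shares. Ctsg (cathepsin G) and Ms4a3, which mark granulocyte precursors, were below the reference in every pool. Prtn3, the proteinase gene next to Elane, differed by 0.08 (SE 0.12). The lower gene was Serpinb1a, an inhibitor of neutrophil serine proteases. It had values of 7.56 in DBA females and 8.38 in DBA males, against 9.19 in 129 females and 9.23 in 129 males, a difference of -1.25 (SE 0.26, adjusted p 0.198 in limma). That adjusted p was 0.00974 without the DBA male pool and missed the threshold in the other 10 of 11 alternatives, with values up to 0.654. Ctsc, which activates the granule proteases, differed by 0.28 (SE 0.13), Lyz2 (lysozyme) by 0.13 and the granule membrane gene Cd63 by -0.18 (SE 0.11). Lyz2 is also among the macrophage markers read below, and which cells gave these signals was not tested.

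Of 18 further genes of specific and gelatinase granules, 1 passed the adjusted threshold of limma and was higher in DBA, and before adjustment 6 had a p under 0.05 with DBA higher (6.44% of all genes) and 1 with DBA lower (5.08% of all genes). Their median difference was 0.17, against 0.0045 over all genes. The called gene was Mmp9, the gelatinase of tertiary granules, which activated macrophages transcribe as well. Its values were 11.61 in DBA females and 10.95 in DBA males, against 8.79 in 129 females and 8.24 in 129 males. The difference was 2.77 (SE 0.27, adjusted p 0.028 in limma), and the groups were far apart. The call was lost without either 129 pool and in a fit of the whole array by probe set, with adjusted p up to 0.263.

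Other genes of this class differed in both directions without passing the adjusted threshold. Hp (haptoglobin) had values of 12.47 in DBA females and 12.24 in DBA males, against 11.60 in 129 females and 10.70 in 129 males, a difference of 1.21 (SE 0.29). Chil1, a chitinase-like protein, had values of 11.84 in DBA females and 11.22 in DBA males, against 10.998 in 129 females and 9.97 in 129 males, a difference of 1.04 (SE 0.37). Both genes are also transcribed by macrophages. With 1 pool left out in turn, the difference lay between 0.76 and 1.66 for Hp and between 0.53 and 1.56 for Chil1, the lowest without the 129 male pool and the highest without the 129 female pool. Pglyrp1, a peptidoglycan recognition protein of neutrophil granules, went the other way, with values of 8.11 in DBA females and 8.19 in DBA males, against 8.73 in 129 females and 8.58 in 129 males, a difference of -0.51 (SE 0.12). Chil3, known as Ym1, differed by -0.35 (SE 0.21). The adjusted p in limma was 0.245 for Hp, 0.373 for Chil1, 0.223 for Pglyrp1 and 0.563 for Chil3. Olfm4, Itgb2l, Retnlg and Wfdc21 were below the reference in every pool.

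Of 14 measured surface and late neutrophil genes, 0 passed the adjusted threshold of limma, before adjustment 2 had a p under 0.05 with DBA higher (6.44% of all genes) and 1 with DBA lower (5.08%), and 8 were below the reference in every pool. Among those 8 was Ly6g, the antigen by which mouse neutrophils are sorted, named here after its values were seen. Its values were 5.18 in DBA females and 5.22 in DBA males, against 4.82 in 129 females and 4.85 in 129 males. The groups did not overlap, with a difference of 0.36 (SE 0.11, adjusted p 0.315 in limma), but all 4 values were far below the reference. The other 7 were Il1r2, Trem1, Stfa1, Stfa2, Stfa2l1, Stfa3 and Csta2. Fpr2, the formyl peptide receptor that macrophages share with neutrophils, had values of 11.94 in DBA females and 11.91 in DBA males, against 10.80 in 129 females and 9.89 in 129 males. Its difference was 1.58 (SE 0.29, adjusted p 0.153 in limma). Padi4, which citrullinates histones in neutrophil extracellular traps, differed by -0.42 (SE 0.22). The gene with DBA lower before adjustment was Hdc, the histamine-forming enzyme, with a difference of -0.72 (SE 0.16). For Hdc both DBA pools were below the reference and both 129 pools above it.

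**Figure D3:**
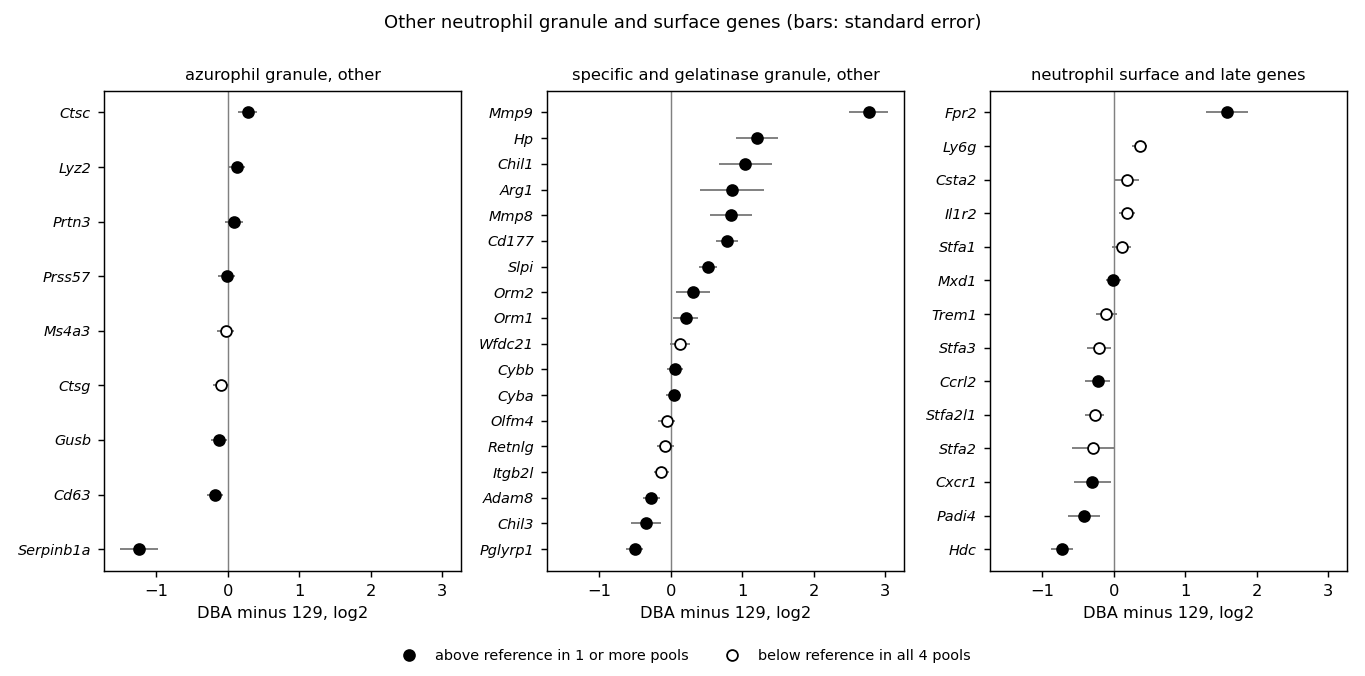
DBA minus 129 in log2 expression (horizontal axes) for the further genes of each class (vertical axes), with bars of 1 SE from limma. Open circles are genes below the background reference in every pool, and Mmp9 lies farthest from 0 at 2.77, Fpr2 lies at 1.58, and Serpinb1a lies lowest at -1.25.

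The neutrophil genes were next divided at the reference, which is a cut on level. Elane and Prtn3 lay just above it and Mpo just below. Together with 21 measured markers beyond the members there were 31 neutrophil genes, 15 of which were below the reference in all pools. Those 15 differed by -0.27 to 0.36 with a median of -0.07, and at an unadjusted p under 0.05 the count was 1 higher (Ly6g) and 0 lower. The 16 above the reference, each in all 4 pools, differed by -0.51 to 2.77 with a median of 0.48, and before adjustment 8 had a p under 0.05 with DBA higher and 1 with DBA lower. Of all 22180 genes, 14196 were above the reference in at least 1 pool. Among these 14196, 8.54% were higher and 4.92% lower by that measure, with a median of 0.04. The background genes included Ly6g, Retnlg, Ngp, Camp, Ltf, Mpo and S100a9. Those above it and higher in DBA included 2 named here after their values were seen, Mmp8 (neutrophil collagenase) and Cd177 (a surface antigen of neutrophils). Mmp8 had values of 10.65 in DBA females and 10.04 in DBA males, against 9.85 in 129 females and 9.16 in 129 males, a difference of 0.84 (SE 0.29, adjusted p 0.366 in limma). Cd177 had values of 9.04 in DBA females and 8.74 in DBA males, against 8.22 in 129 females and 7.99 in 129 males, a difference of 0.78 (SE 0.15, adjusted p 0.181 in limma). Neither gene overlapped between the strains. DBA was higher without overlap for 23% of all genes and 28.8% of genes above the reference. Others of the 16 were lower in DBA, namely Pglyrp1 (-0.51), Padi4 (-0.42), Cxcr1 (-0.30) and Cxcr2 (-0.05). Elane (0.03) and Prtn3 (0.08) differed little. The linear levels of the 10 members summed to 8587 in DBA females and 6433 in DBA males, against 5865 in 129 females and 5338 in 129 males. Those of the 21 further markers summed to 20751 and 16680 in DBA and to 11164 and 7099 in 129. The brightest probe sets set these sums. In such bulk samples, fewer cells of a type and less RNA per cell cannot be told apart.

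Transcription factors direct granulocyte differentiation in a fixed order. Of 8 such genes, 0 passed the adjusted threshold of limma, 1 had a p under 0.05 before adjustment (DBA higher, 6.44% of all genes), and the median difference was 0.18. Cebpa, needed for the granulocyte fate, differed by 0.30, Cebpb by 0.33 and Runx1 by -0.11. Of the factors of late granulocyte maturation, Gfi1 was below the reference in every pool, and Cebpe, named here after its values were seen, had values of 7.93 in DBA females and 7.98 in DBA males, against 7.87 in 129 females and 7.78 in 129 males.

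Among the 16 other genes of the S100 family, 0 passed the adjusted threshold of limma, before adjustment 1 had a p under 0.05 in each direction, near the 6.44% higher and 5.08% lower of all genes, and the median difference was -0.09. In 8 of them all pools were below the reference, among them S100a7l2, the gene with DBA higher. Both DBA pools were below both 129 pools for 7 of the 16, against 21.4% of all genes. They were above both 129 pools for 1, against 23%. Of those 7, S100a2, S100a16 and S100z were at background. S100a11, a broadly expressed member, had values of 12.72 in DBA females and 12.52 in DBA males, against 12.98 in 129 females and 12.89 in 129 males. Its difference of -0.32 (SE 0.12) ran opposite to that of S100a8. S100a13 differed by 0.30 (SE 0.18), S100a6 by 0.14 and S100a14 by -0.20. For S100a14 both DBA pools were below the reference and both 129 pools just above it.

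The ligands and receptors around the members held 16 genes. By the adjusted p of limma, 2 were higher and 0 lower in DBA, where 0.374% of all genes were called, and both were ligands of Cxcr2. Before adjustment 3 had a p under 0.05 with DBA higher (6.44% of all genes) and 0 with DBA lower (5.08%). Cxcl3 had values of 8.37 in DBA females and 8.77 in DBA males, against 6.18 in 129 females and 5.57 in 129 males. The 129 values were below the reference and the DBA values above it, with a difference of 2.69 (SE 0.24, adjusted p 0.0243 in limma). Ppbp, known as Cxcl7, had values of 8.42 in DBA females and 7.97 in DBA males, against 6.64 in 129 females and 6.33 in 129 males. Its difference was 1.71 (SE 0.19, adjusted p 0.0416 in limma), also with both 129 pools below the reference. Both calls were lost without either 129 pool, and again in a fit of the whole array by probe set, with adjusted p up to 0.239 for Cxcl3 and 0.317 for Ppbp. Cxcl2 had values of 10.61 in DBA females and 10.14 in DBA males, against 9.76 in 129 females and 9.50 in 129 males, a difference of 0.74 (SE 0.19, adjusted p 0.267 in limma). Cxcl1 differed by 0.35 (SE 0.21). Ager, a receptor proposed for S100 proteins, differed by -0.17 (SE 0.12), and Lrp1, the lipoprotein receptor that also takes up lactoferrin, by -0.28 (SE 0.14).

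Markers of other cells that a peritoneal lavage can hold were read beside these results. The macrophage label matched its markers, none of 17 being below the reference in every pool, and their linear levels summed to 83545 in DBA females and 74252 in DBA males, against 75475 in 129 females and 70177 in 129 males. Macrophage genes differed both ways, for example Marco by 1.45 and Siglec1 by -0.73. Both DBA pools were above both 129 pools for 10 of the 17, against 23% of all genes. They were below both 129 pools for 5, against 21.4%. The median difference of the macrophage markers was 0.15. All 5 measured monocyte markers had higher values in DBA with no overlap, against 23% of all genes and 28.8% of genes above the reference, with a median difference of 0.83 and sums of 5336 and 4486 in DBA against 2201 and 1284 in 129. Ly6c2, which marks inflammatory monocytes, had values of 11.22 in DBA females and 11.33 in DBA males, against 9.19 in 129 females and 7.09 in 129 males. Of 9 measured B cell markers, 8 had all DBA values above the 129 values, beside the same 23% and 28.8%, with a median difference of 0.88.

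B cell sums were 7778 in DBA females and 3550 in DBA males, against 2548 in 129 females and 2152 in 129 males. Ms4a1 (CD20) had values of 10.44 in DBA females and 9.04 in DBA males, against 8.08 in 129 females and 7.90 in 129 males. The DBA female pool, highest in B cell markers, also had the highest sums of the macrophage, monocyte and further neutrophil markers. That pool was also the highest for S100a8, Lcn2 and Csf3r. It was the highest too for Elane, Ngp and Ltf, in which the strains overlapped. In none of these lists but 1 did a gene pass the adjusted threshold of limma, which 0.374% of all genes passed. The exception was Mcpt4 among 8 mast cell markers. Its difference was 1.80, with both 129 pools below the reference. That call was lost without either 129 pool and in a fit of the whole array by probe set. The 7 measured eosinophil markers had a median difference of 0.02 with 6 below the reference in every pool, and the 8 T and NK cell markers had a median of -0.13 with 4 below it. The part of monocytes and B cells in the differences of S100a8, Lcn2 and Csf3r was not tested.

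**Figure D4:**
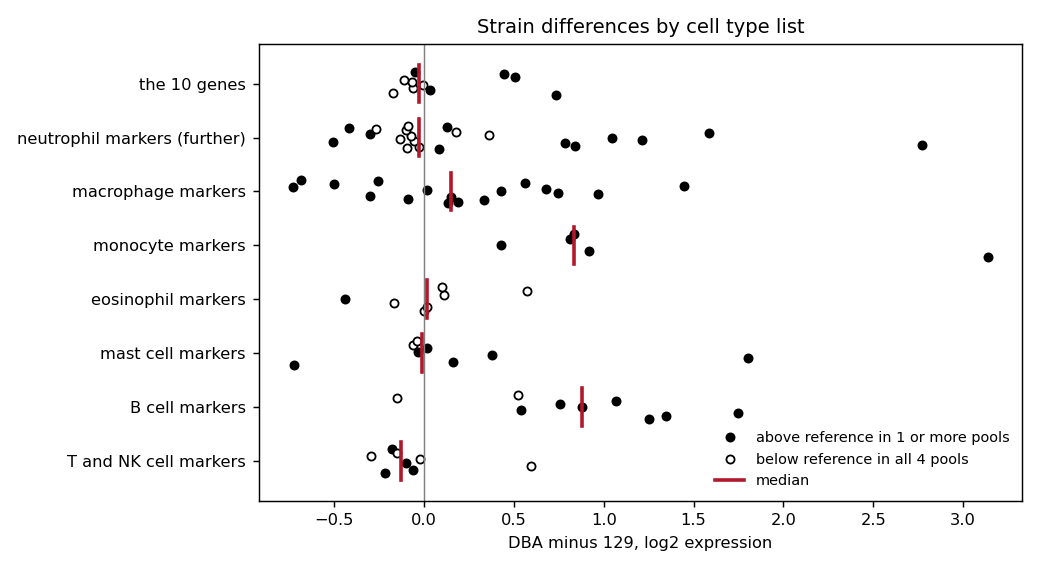
DBA minus 129 in log2 expression (horizontal axis) for each measured gene of the cell type lists (rows), 1 point per gene with the median of each list marked. The medians are 0.83 for monocyte and 0.88 for B cell markers, against -0.03 for the 10 members. These lists differ in genes below the reference in every pool: 0 of 5 monocyte markers, 2 of 9 B cell markers and 5 of the 10 members. For the 16 neutrophil genes above the reference, members included, the median is 0.48.

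For the members whose highest and lowest pool differed by 1 or more, the genes with the most similar profile were sought among 14191 genes above the reference in at least 1 pool. Likeness was the root mean square distance over the 4 pools after each profile was centred on its own mean. S100a8, with a range of 1.08, was closest to Cd14 (a co-receptor for lipopolysaccharide) at 0.02, followed by Tnfrsf14 and Scarf1 (a scavenger receptor) at 0.03 each, and 23 genes lay within 0.1. Lcn2, with a range of 1.01, was closest to Lilra5 at 0.03, Tlr9 (the receptor for CpG DNA) at 0.04 and Ltbp1 at 0.05, and 26 genes lay within 0.1. Cd14 had values of 12.30 in DBA females and 12.14 in DBA males, against 11.73 in 129 females and 11.22 in 129 males, which gave a difference of 0.75 beside 0.74 for S100a8. None of these 6 genes is in the neutrophil lists used here, but the others of the 23 and 26 genes are not named. Which cells gave these signals was not tested. Over 4 pools such likeness is a description only.

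**Figure D5:**
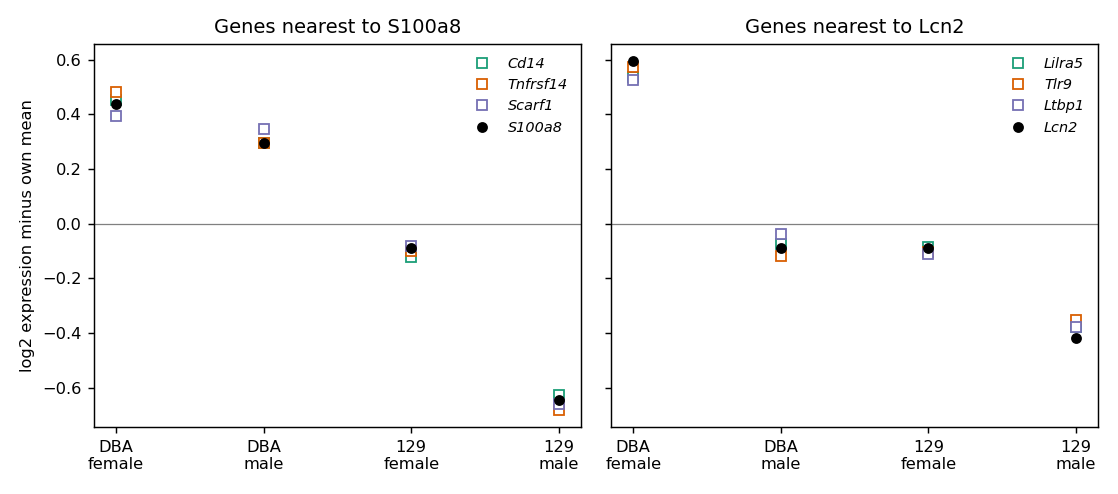
Log2 expression minus the gene's own mean (vertical axes) in the 4 pools (horizontal axes) for S100a8 and Lcn2 and the 3 genes nearest to each. S100a8 and its neighbours are lowest in the 129 male pool, and Lcn2 and its neighbours are highest in the DBA female pool.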

How the data were processed

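RNA of 4 pools of thioglycollate-elicited peritoneal macrophages was hybridised to Affymetrix mouse gene arrays, 1 array per pool. The authors deposited log2 values that, by the submitters' processing notes, were made with Affymetrix Expression Console. How they were summarised, background-corrected and normalised, and the program version, is not given in the sources used here. Values lay between 1.71 and 14.2, no arrays were identical, and precision was limited by having 4 arrays.

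Of 41345 probe sets, 23521 carried 1 gene symbol, 1820 several and 16004 none in the annotation used. Probe sets with 1 symbol were kept, and for the 1082 genes with several such probe sets the probe set of highest mean was used, which gave 22180 genes. No dim gene was removed. The strain comparison used limma 3.58.1 under R 4.3.3, with lmFit and eBayes, a strain term alone and 2 residual degrees of freedom. Female and male pools were compared with strain in the model (1 residual degree of freedom). No degrees of freedom remain for a strain by sex interaction. The Benjamini-Hochberg adjustment ran over all genes, with 0.05 as the threshold. P-values measure only the spread between pools, which differ in sex.

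The 10 genes, the gene lists, the background reference and the tests were chosen with earlier results of these data known. Besides the 10 members, genes named were those past the threshold in each list and up to 4 more, the 2 with the largest difference each way among genes above the reference. Csf3, Prtn3 and Cxcr1 were added as the ligand or chromosomal neighbours of members, and Ly6g, Cebpe, Mmp8 and Cd177 after their values were seen. Promoter sequences were from RefSeq (GRCm38.p6). The fit was tested on simulated data with independent noise and no difference between the sexes. How often it recovers differences of the members' size is not given here. Alternatives were sex as a block, another prior, quantile and median scaling, removal of dim genes, other uses of probe sets, a minimum of 2-fold, and leaving out each pool.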

Additional observations from a re-analysis of the deposited data

Results flagged for a closer look

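For 6 of the 10 members the difference between DBA and 129 was positive in one sex and negative in the other. The difference of the female pools minus that of the male pools was 0.42 for S100a9 (0.03 in females and -0.38 in males), 0.13 for Elane (0.10 and -0.03), -0.25 for Mpo (-0.19 and 0.06), 0.0415 for Ngp (0.02 and -0.03), 0.23 for Ltf (0.01 and -0.23) and -0.26 for Cxcr2 (-0.18 and 0.08). Of these, only Elane and Cxcr2 were above the background reference.

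Among the further genes whose values are given above, the sign was also opposite for Chil3 (-0.87), Runx1 (0.56), S100a6 (-0.50), S100a13 (-0.67), Csf3 (-0.41) and Cxcr1 (-1.09). In all, 45 of 134 list genes beyond the members and 10180 of 22180 genes (45.9%) had opposite signs. Each sex of a strain was 1 pool, so these differences between the sexes were not tested.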

How the results depend on the processing

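None of the 10 members passed the adjusted threshold under any alternative run, with adjusted p in limma between 0.156 and 0.998 over 105 values for strain and equal to 1 over 20 values for sex. The lowest adjusted p was 0.168 for S100a8, 0.156 for Lcn2 and 0.185 for Csf3r, and these 3 differences kept their sign in every alternative, with ranges of 0.46 to 1.01, 0.17 to 0.85 and 0.22 to 0.68. At an unadjusted p under 0.05, the count of members was 2, with 1 to 3 over the alternatives. The sign turned in 9 of the 105 values, all of them of Ngp, Elane, Mpo, Ltf and Cxcr2. Ngp was 0.0546 with quantile normalization and 0.0267 with a common median. With each pool left out in turn, Ngp ran between -0.0948 (DBA females dropped) and 0.0858 (DBA males dropped), with 0.065 when 129 females were dropped. In the same runs Elane lay between -0.0437 (DBA females dropped) and 0.113, Mpo between -0.177 and 0.0488 (129 females dropped), and Ltf between -0.305 and 0.0865 (DBA males dropped). Cxcr2 lay between -0.128 and 0.0309 (DBA females dropped), with 0.0045 when 129 females were dropped. Over all genes, the count past the threshold was 83, against 47 with sex as a block, 129 with a trended and robust prior and 0 when all 41345 probe sets were tested together (3471 at an unadjusted p under 0.05). Leaving out 1 pool gave 6 to 186 genes: 135 or 186 when DBA females or DBA males were dropped, and 16 or 6 when 129 females or 129 males were dropped. The lone pool of a strain was then assumed to vary like the other strain. The pairing of pools by sex is the block above, and it called none of the members. The sex comparison has no residual degrees of freedom once a pool is dropped, so that was not run.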
